A study of Mus musculus with 54 samples.

Results

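The fibrillar collagens are the collagens that assemble into the banded fibers of the extracellular matrix. A total of 10 of their chains were examined, Col1a1, Col1a2, Col3a1, Col5a1, Col5a2, Col5a3, Col11a1, Col11a2, Col2a1 and Col27a1, out of 19653 genes listed in the deposited tables. They were chosen by name, through the NCBI gene identifiers of these 10 mouse symbols, and all 10 were listed in each of the 27 tables. RNA was sequenced from H2K myogenic progenitors, mouse muscle precursor cells that proliferate under γ-interferon and form myotubes after serum withdrawal. The differentiation medium is described without γ-interferon or chick embryo extract, and temperature and carbon dioxide were changed at the same switch. Time after 0 h and these changes cannot be told apart. There were 6 lines. Wildtype progenitors carried the endogenous emerin gene and EMD-/y progenitors, labelled Emerin null, lacked it. The other 4 lines were EMD-/y progenitors transduced with lentivirus that expressed wildtype emerin (+EMD, labelled EMD) or the emerin mutants S54F, Δ95–99 (labelled Del9599) or Q133H, which cause Emery–Dreifuss muscular dystrophy. Each line was sampled at 0, 24 and 48 h of differentiation, with 3 labelled replicates per group, 18 groups and 54 samples.

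Limits of the lines as models apply to every comparison with wildtype. Each transduced line was a pool of puromycin-selected cells on the EMD-/y background, plated more densely than wildtype and EMD-/y progenitors, and the wildtype line was neither transduced nor selected. A line with the empty vector was not analysed here. The labels give each culture as H2K cells, and whether the 3 labelled replicates of a group are separate cultures is not stated for each sample; the methods give 3 technical replicates for each of 2 biological replicates. The p-values below therefore measure only the spread between these libraries, which may be technical.

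The counts of the single libraries were recovered from the deposited means, as explained under the processing, and their totals lay between 16.5 M and 19.6 M reads (median 18.2 M). In each group the 2 most similar libraries are called a and b and the third library c. Over genes, the median squared difference between a and b was 1.56 to 3.71 times that of sampling noise. Between c and either of them it was 3.46 to 23.4 times, with the largest values, 20.3 and 23.4, in Q133H at 48 h. The smaller value for c was 1.11 to 8.02 times that of a and b, c being the farther library by this choice. Each result was therefore also computed with a and b averaged into 1 value, so that a group had 2 values. Emd, the gene deleted in EMD-/y, had 1145 to 2052 normalized counts in the wildtype libraries and 0 to 2.9 in all others, +EMD included, so these counts check the deletion and not the transgenes. The libraries were grouped by which of the 1797 predicted genes without a reference annotation had reads. The number of sets, 3, was a setting of this grouping and not a result. The 9 wildtype libraries formed the first set, 11 libraries of the transduced lines at 0 h the second, and the other 34 the third, including library a of +EMD at 0 h. Library b of that group, the one most similar to its library a, fell in the second set. All 15 comparisons with wildtype crossed these sets, so set and wildtype genotype cannot be told apart. Muscle markers were present in every line. The 12 myogenic genes examined summed to 59405 to 954335 normalized counts in wildtype libraries, while 5 of 6 endothelial markers had reads and summed to at most 64.6 in any library.

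Fibrillar collagens are made as procollagens that wind into a triple helix in the endoplasmic reticulum, are trimmed outside the cell and cross-linked into fibers. Type I, with α1 chains from Col1a1 and an α2 chain from Col1a2, is the main collagen of the muscle's connective tissue. Type III from Col3a1 is laid into the same fibers. Types V and XI start fiber assembly and limit fiber width, type II is the collagen of cartilage, and type XXVII is a minor chain of developing skeleton. In muscle most fibrillar collagen is known to come from fibroblasts and fibro-adipogenic cells, and cultured myoblasts make it as well.

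RefSeq promoter sequences (GRCm38.p6, 250 bases before to 50 bases after the start of transcription) were matched for 7 of the 10 members, with Col1a1, Col5a2 and Col2a1 unmatched. The 4 below belong to the matched members whose levels differed most from wildtype in 1 or more lines (Col1a2, Col5a3 and Col11a1) and to the abundant member that differed least often beside Col5a1 (Col3a1). Capitals mark CCAAT or its reverse complement ATTGG, the core letters bound by the factor NF-Y, searched on both strands.
Col1a2, chr6:4505368-4505667, + strand: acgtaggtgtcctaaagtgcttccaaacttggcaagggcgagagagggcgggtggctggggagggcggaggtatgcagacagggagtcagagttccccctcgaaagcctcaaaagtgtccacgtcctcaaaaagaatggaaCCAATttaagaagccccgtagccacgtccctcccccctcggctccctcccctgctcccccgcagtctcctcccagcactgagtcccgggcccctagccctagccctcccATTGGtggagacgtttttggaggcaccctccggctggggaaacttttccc
Col5a3, chr9:20815018-20815317, - strand: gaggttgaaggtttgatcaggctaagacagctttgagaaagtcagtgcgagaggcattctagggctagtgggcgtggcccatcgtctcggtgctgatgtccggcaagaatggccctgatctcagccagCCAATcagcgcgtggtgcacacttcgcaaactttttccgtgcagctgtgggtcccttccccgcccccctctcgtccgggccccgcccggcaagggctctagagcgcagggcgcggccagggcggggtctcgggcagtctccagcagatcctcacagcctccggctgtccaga
Col11a1, chr3:114030290-114030589, + strand: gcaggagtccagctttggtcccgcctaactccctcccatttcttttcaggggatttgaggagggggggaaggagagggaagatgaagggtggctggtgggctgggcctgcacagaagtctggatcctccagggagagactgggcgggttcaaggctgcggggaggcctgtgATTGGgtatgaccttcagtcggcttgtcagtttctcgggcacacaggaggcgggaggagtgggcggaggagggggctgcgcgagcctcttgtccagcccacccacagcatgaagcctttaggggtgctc
Col3a1, chr1:45311288-45311587, + strand: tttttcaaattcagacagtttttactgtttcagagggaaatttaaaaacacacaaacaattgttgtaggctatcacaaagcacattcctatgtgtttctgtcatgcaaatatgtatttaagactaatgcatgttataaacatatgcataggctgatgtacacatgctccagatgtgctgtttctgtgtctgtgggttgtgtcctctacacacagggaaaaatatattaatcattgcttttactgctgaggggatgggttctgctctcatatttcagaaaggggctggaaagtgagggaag
The Col1a2 window held the motif at bases -109 and 0, counted with the start as 0, Col5a3 at -122 and Col11a1 at -79. It was found in 3 of 7 member promoters and in 37.4% of all 32851 promoters of this length. GGGCGG or its reverse complement CCGCCC, the core letters bound by Sp1, was found in 6 of 7 and in 35.7% of all promoters. TATAAA or its reverse complement TTTATA was found in 2 of 7, Col3a1 and Col11a2, and in 13.6% of all promoters. These are matches of letters and not tested sites.

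Col1a2, Col3a1 and Col5a2 were the most abundant members. Per kb of transcript, Col1a2 had a median group mean of 3242 normalized counts per kb, Col3a1 3174, Col5a2 1869, Col5a1 958, Col1a1 504 and Col5a3 215. The remaining members were far lower, with medians of 20.4 for Col11a1, 4.82 for Col27a1, 2.13 for Col2a1 and 1.46 for Col11a2. Col11a2 had 1 to 44 reads per library and Col2a1 0 to 51, so their values carry large counting error. Between groups the members differed in how far their means ranged. Col5a1 ranged 3.05-fold from the lowest to the highest group mean, Col3a1 3.76-fold and Col5a2 3.86-fold, against 41.4-fold for Col1a1 and 109-fold for Col1a2. The spread within groups was largest for Col1a1 among the abundant members, where the coefficient of variation reached 135% in S54F at 0 h, with normalized counts of 849, 889 and 10194.

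**Figure D1:**
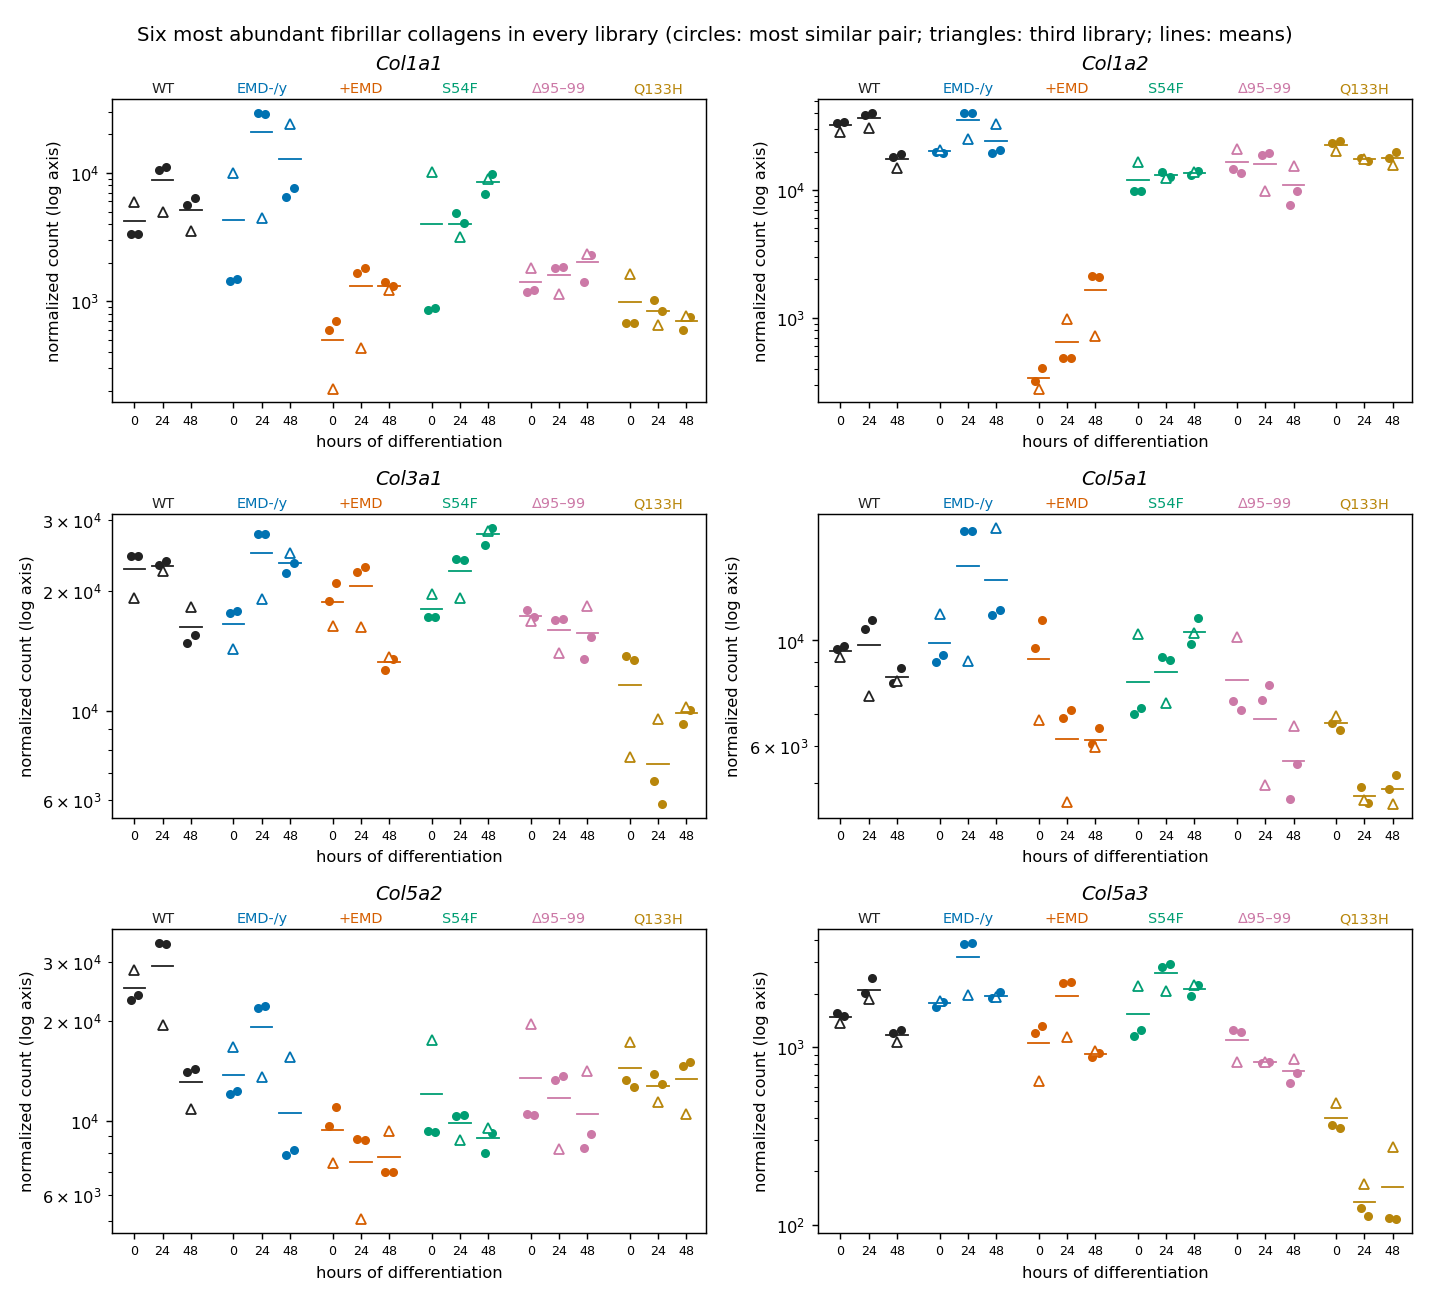
Normalized counts (log axis) of the 6 most abundant fibrillar collagens in every library, by line and hours of differentiation; circles are the most similar pair, triangles the third library and lines the means. Col1a2 in +EMD lies at 279 to 2129, below all other lines, and Col5a3 in Q133H at 108 to 488, below all other lines.

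The total fibrillar collagen transcript was below every wildtype library in +EMD and in Q133H at each time. Summed over the 10 members, wildtype had 16275, 16423 and 15524 normalized counts per kb at 0 h, 20134, 20627 and 14883 at 24 h, and 10317, 10962 and 9516 at 48 h. The +EMD sums were 6325, 7116 and 5055 at 0 h, 6905, 7071 and 4676 at 24 h, and 4844, 5031 and 5066 at 48 h. Those of Q133H were 9909, 9874 and 9049, then 7550, 6990 and 7513, then 8052, 8733 and 7161. At 0 h the other 3 lines lay below wildtype as well, EMD-/y with 10393, 10446 and 12347, S54F with 7545, 7589 and 12617, and Δ95–99 with 8931, 8574 and 11748. At 24 h S54F (8870 to 10903) and Δ95–99 (6580 to 10282) lay below wildtype and EMD-/y (12441 to 23518) overlapped it. At 48 h EMD-/y (11586 to 19505) and S54F (11004 to 12560) lay above wildtype and Δ95–99 (6044 to 9745) overlapped it. These sums are a description with no test. Composition differed as well. Col1a2 took 38.1% ± 2.36 (SD, n = 3) of the wildtype sum at 0 h and 1.04% ± 0.0605 of the +EMD sum. Col3a1 took 25.3% ± 2.7 in wildtype and 54.8% ± 2.94 in +EMD at that time. In Q133H, Col1a2 took 44.6% ± 2.03 at 0 h and 45.4% ± 0.839 at 24 h, against 37.8% ± 1.56 in wildtype at 24 h, and Col5a3 took 0.299% ± 0.0588 at 24 h against 1.87% ± 0.202 in wildtype. In bulk RNA, fewer cells of a type and less RNA per cell cannot be told apart.

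**Figure D2:**
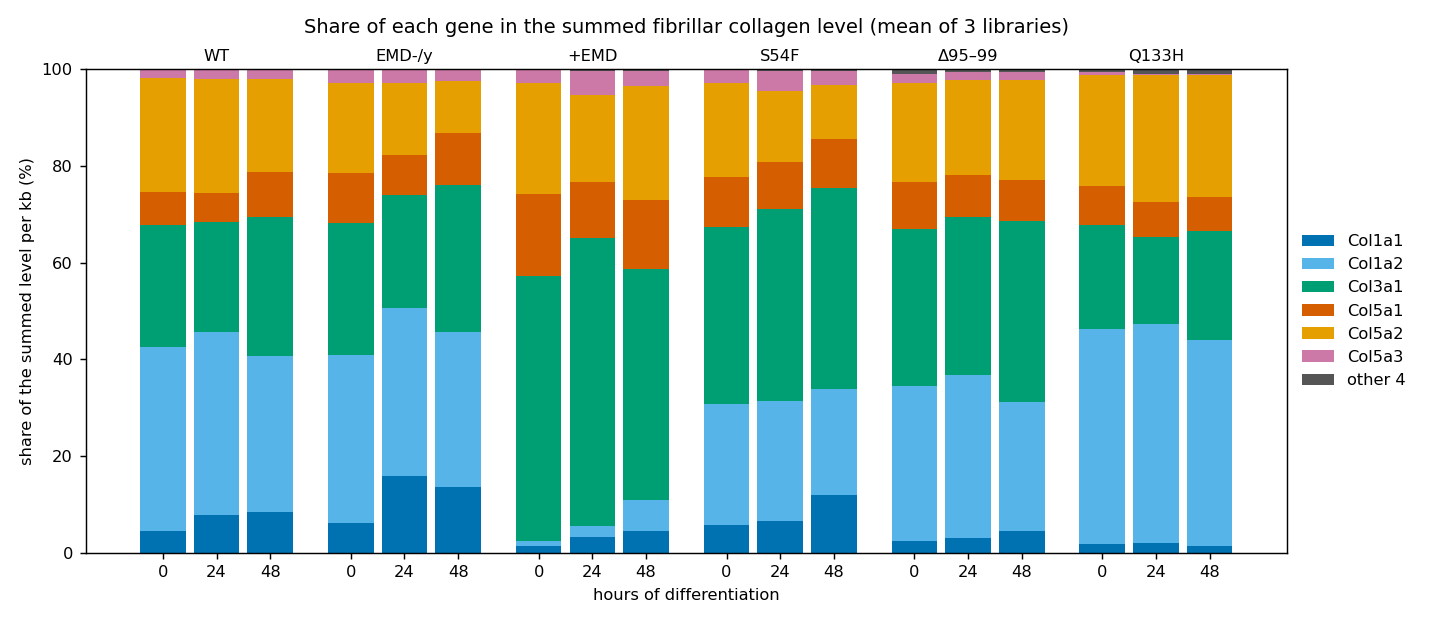
Share (%) of each gene in the summed fibrillar collagen level per kb, mean of 3 libraries, by line and hours of differentiation. Col1a2 makes up 38.1% of the bar in wildtype at 0 h and 1.04% in +EMD, where Col3a1 makes up 54.8%.

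The difference between each line and wildtype at the same time was tested with limma voom. A gene was called when its adjusted p was under 0.05 and its log2 difference was at least 1 in size. Over the 15 comparisons and 10 members there were 150 tests, of which 17 were called higher and 34 lower than wildtype, with a median log2 difference of -0.37 over the members and 0.003 over all genes. Over all genes, 6.83% of tests were called higher and 7.06% lower. With libraries a and b averaged, 9 member tests were called higher and 27 lower, against 4.59% and 5% of all genes in that setting, and 36 of the 51 calls were made in both settings. A total of 37 calls held whichever library was left out. Every comparison with wildtype uses the same wildtype libraries at a given time, so the lines' values are given side by side.

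EMD-/y progenitors had the fewest calls, among the members as over all genes. Of 30 tests in that line, 1 was called higher and 0 lower, near the 3.3% and 2.24% of all genes. By limma voom, 3 of the tests with a lower level had an unadjusted p under 0.05, and limma with a mean trend also called 0 lower. In +EMD, 3 were called higher and 11 lower (7.8% and 8.58% of all genes). S54F had 0 higher and 5 lower (5.27% and 5% of all genes). Of its tests with a higher level, 6 had an unadjusted p under 0.05 by limma voom, and limma with a mean trend called 0 higher. Δ95–99 had 6 higher and 7 lower (8.33% and 8.11%), and Q133H had 7 higher and 11 lower (9.47% and 11.4%). With a and b averaged, the counts of higher and lower calls became 0 and 0 in EMD-/y, 2 and 9 in +EMD, 0 and 2 in S54F, 4 and 7 in Δ95–99, and 3 and 9 in Q133H. In that setting, 6 of the 30 EMD-/y tests were higher and 2 lower with an unadjusted p under 0.05 by limma voom. In S54F 6 tests were higher and 6 lower, the latter being Col1a2 and Col5a2 at 3 times each.

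**Figure D3:**
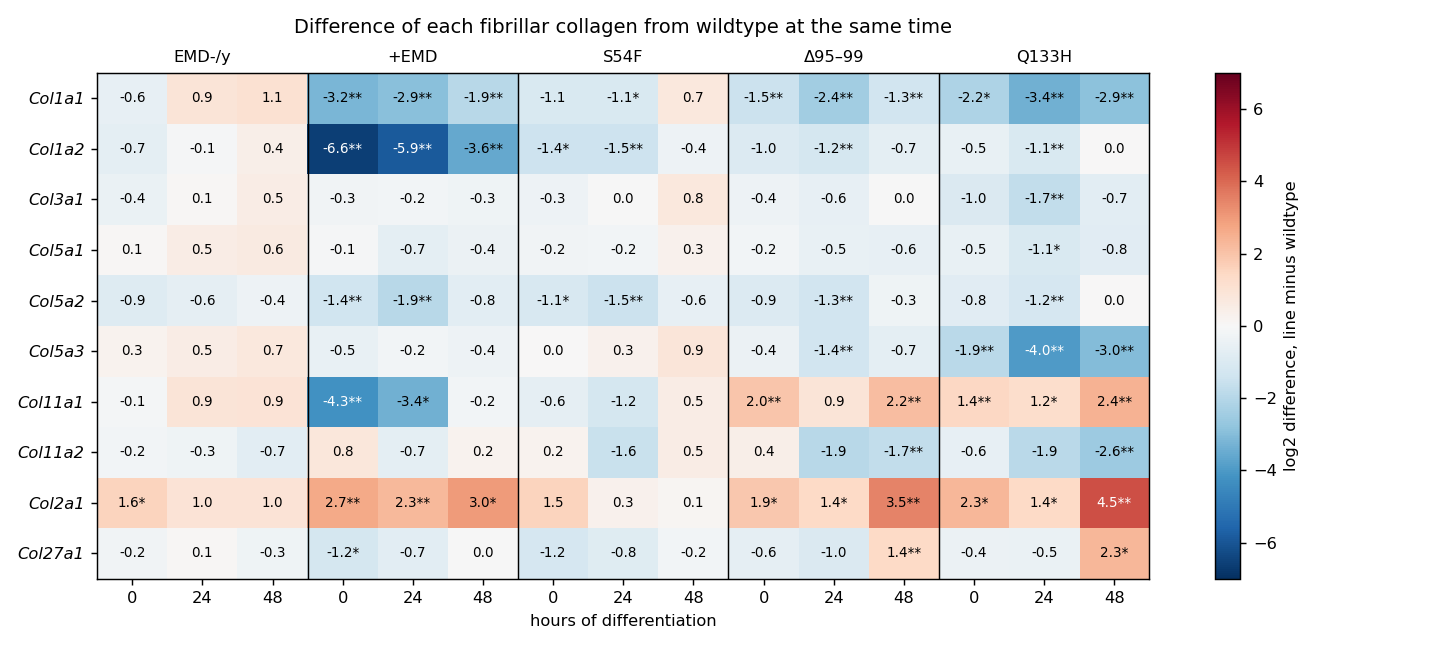
Log2 difference of each fibrillar collagen (rows) from wildtype at the same time (columns, by line and hours); ** marks a call made with 3 libraries and also with libraries a and b averaged, * a call made with 3 libraries only. The Col1a2 row in +EMD holds -6.58, -5.89 and -3.56, and the Col5a3 row in Q133H holds -1.88, -3.98 and -3.03.

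Col1a2, the α2 chain of type I collagen (chromosome 6, bases 4505618 to 4541543 of GRCm38.p6), had the largest single difference from wildtype, in +EMD, while Col1a1 and Col2a1 were called more often (10 of 15 comparisons each, against 7 for Col1a2). Its CCAAT matches are shown above. In wildtype libraries it had 33585, 33824 and 28684 normalized counts at 0 h, 38769, 39836 and 30805 at 24 h, and 17999, 19311 and 14971 at 48 h. In +EMD the same gene had 322, 406 and 279 at 0 h, 483, 484 and 978 at 24 h, and 2129, 2072 and 722 at 48 h. No +EMD library came near a wildtype library. The log2 difference was -6.58 ± 0.14 (SE) at 0 h, with an adjusted p of 1.13e-06 and a 95.5-fold lower level. At 24 h it was -5.89 ± 0.25 (59.5-fold lower, adjusted p = 1.75e-05) and at 48 h -3.56 ± 0.34 (11.8-fold lower, adjusted p = 9.16e-05).

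Other lines kept more Col1a2. EMD-/y libraries had 19992, 19565 and 20591 normalized counts at 0 h, all below wildtype, with a log2 difference of -0.67 ± 0.08 that did not reach the fold threshold (adjusted p = 0.00338). At 24 and 48 h the EMD-/y differences were -0.09 ± 0.19 (adjusted p = 0.822) and 0.43 ± 0.20 (adjusted p = 0.193). S54F was called lower at 0 h (-1.45 ± 0.20, adjusted p = 0.00336) and 24 h (-1.48 ± 0.10, adjusted p = 8.44e-05), and the 0 h call was lost with a and b averaged (adjusted p = 0.0661). At 48 h S54F had 13030, 14108 and 13882, a difference of -0.35 ± 0.09. Δ95–99 was called lower at 24 h (-1.25 ± 0.25, adjusted p = 0.00533), where its libraries had 18944, 19478 and 9862, and without the last of these, library c, the difference was -0.92 and not called. At 0 h Δ95–99 had 14573, 13615 and 21122, below every wildtype library, and a difference of -0.97 ± 0.16 (adjusted p = 0.0054) just under the fold threshold, which was called without library c of either line. At 48 h its difference was -0.71 ± 0.23 (adjusted p = 0.0322). Q133H was called lower at 24 h (-1.08 ± 0.10, adjusted p = 1.60e-04), and at 48 h its libraries, at 17804, 19947 and 15616, overlapped those of wildtype.

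Col1a1, the α1 chain of type I collagen (chromosome 11, bases 94936224 to 94953042), was called lower in 10 of 15 comparisons. At 24 h it had 10609, 11109 and 4954 normalized counts in wildtype, 1675, 1813 and 435 in +EMD, 1807, 1858 and 1150 in Δ95–99, and 1032, 848 and 659 in Q133H. None of these 3 lines overlapped wildtype. In Q133H the log2 difference was -2.16 ± 0.37 at 0 h, -3.35 ± 0.34 at 24 h and -2.87 ± 0.24 at 48 h, and the 0 h call was lost with a and b averaged (adjusted p = 0.0645). In +EMD it was -3.17 ± 0.43, -2.93 ± 0.55 and -1.93 ± 0.21 at the same times, and in Δ95–99 -1.53 ± 0.26, -2.43 ± 0.33 and -1.33 ± 0.26. The adjusted p-values of the latter 6 calls lay between 1.84e-04 and 0.00525. S54F was lower at 24 h (-1.06 ± 0.31, adjusted p = 0.0321), but that call was lost when wildtype a or b or any S54F library was left out (-1.44 to -0.87). At 0 h S54F had 849, 889 and 10194 (-1.055 ± 0.89, adjusted p = 0.466), and it was called lower without library c (-2.22). At 48 h S54F had 6835, 9771 and 9059, above the wildtype libraries at 5586, 6406 and 3535. That difference of 0.74 ± 0.22 was under the fold threshold (adjusted p = 0.0334).

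The a and b libraries of EMD-/y and the c library disagreed on Col1a1. At 0 h the normalized counts were 1429, 1483 and 9960, at 24 h 29407, 28653 and 4471, and at 48 h 6447, 7703 and 24244. The wildtype libraries lay inside the EMD-/y range at 0 and 24 h and below all 3 EMD-/y libraries at 48 h. The differences were -0.55 ± 0.72, 0.89 ± 0.74 and 1.08 ± 0.48, with adjusted p-values of 0.649, 0.538 and 0.177. Without library c, EMD-/y was called lower at 0 h (-1.48) and higher at 24 h (1.79).

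The ratio of both type I transcripts, Col1a2 per Col1a1 on the per kb scale, ran in opposite directions in +EMD and Q133H. It lay between 3.43 and 11.5 in wildtype libraries, between 0.304 and 2.56 in +EMD and between 14.1 and 40.3 in Q133H, so neither line overlapped wildtype. At 24 h it was 4.16, 4.08 and 7.08 in wildtype, 0.328, 0.304 and 2.56 in +EMD, and 19.8, 22.7 and 30.2 in Q133H. EMD-/y ranged from 1.54 to 15.9, S54F from 1.64 to 13.3 and Δ95–99 from 4.86 to 13.9. Their ranges overlapped the wildtype range, and those of EMD-/y and S54F also overlapped +EMD.

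**Figure D4:**
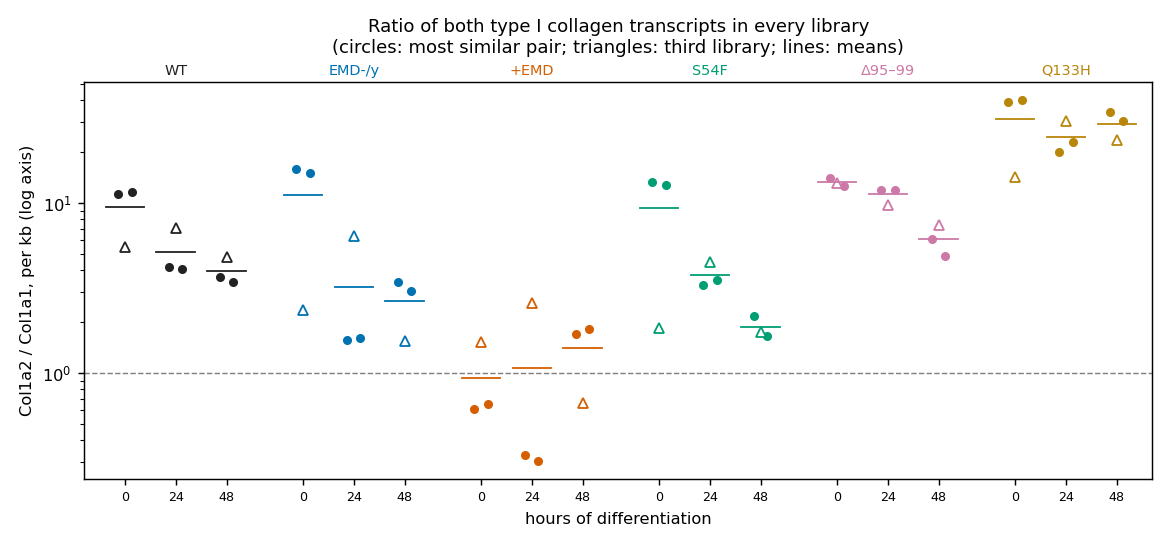
Ratio of Col1a2 to Col1a1 per kb (log axis) in every library, by line and hours of differentiation; circles are the most similar pair, triangles the third library, lines the means and the dashed line a ratio of 1. +EMD libraries lie at 0.304 to 2.56 and Q133H libraries at 14.1 to 40.3, on either side of the wildtype range of 3.43 to 11.5.

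Col3a1, the only chain of type III collagen (chromosome 1, bases 45311538 to 45349706), was called in 1 of 15 comparisons with wildtype, in Q133H at 24 h, while 8 lower and 2 higher differences had an unadjusted p under 0.05. There its libraries had 6679, 5864 and 9539 normalized counts against 23142, 23795 and 22361 in wildtype, a 3.26-fold lower level (log2 difference -1.70 ± 0.16, adjusted p = 1.47e-04). At 0 h Q133H had 13713, 13400 and 7655 against 24444, 24440 and 19174, and its difference of -0.996 ± 0.229 fell short of the fold threshold (adjusted p = 0.0197). In +EMD, where Col1a2 was lowest, Col3a1 had 18832, 20878 and 16363 at 0 h, overlapping wildtype, and differences of -0.27 ± 0.13, -0.19 ± 0.13 and -0.28 ± 0.08 over the 3 times. S54F at 48 h lay above wildtype with 26048, 28700 and 28223 against 14832, 15538 and 18249, a difference of 0.76 ± 0.08 under the fold threshold (adjusted p = 3.58e-04). Per kb, Col3a1 exceeded Col1a2 5.59-fold to 55.1-fold in +EMD libraries, against 0.56-fold to 1.14-fold in wildtype.

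Type V collagen nucleates the type I fibers, and its 3 chains behaved differently. Col5a1, the α1(V) chain (chromosome 2, bases 27886381 to 28039510), was called in 1 of 15 comparisons. By limma voom, 7 lower and 2 higher differences had an unadjusted p under 0.05. In +EMD it was lower without overlap at 24 h (-0.67 ± 0.20, adjusted p = 0.0254) and 48 h (-0.44 ± 0.05, adjusted p = 3.11e-04). Both lay under the fold threshold, and at 0 h +EMD overlapped wildtype (-0.07 ± 0.16). In Q133H at 24 h it had 4919, 4549 and 4622 normalized counts against 10573, 11063 and 7649 in wildtype, a log2 difference of -1.06 ± 0.14 (adjusted p = 6.88e-04). The call was lost without wildtype library a or b (-0.96 at the smallest) and with a and b averaged (-0.98). At 48 h EMD-/y had 11328, 11596 and 17258 against 8129, 8743 and 8201, a difference of 0.65 ± 0.16 under the fold threshold (adjusted p = 0.0287).

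Col5a2, the α2(V) chain (chromosome 1, bases 45374331 to 45503282), was called lower in 6 of 15 comparisons. At 24 h wildtype libraries had 34140, 33954 and 19375 normalized counts. Those of +EMD had 8808, 8763 and 5079 (-1.95 ± 0.28, adjusted p = 0.00103), those of S54F 10351, 10433 and 8775 (-1.52 ± 0.21, adjusted p = 0.00166), those of Δ95–99 13238, 13604 and 8226 (-1.32 ± 0.27, adjusted p = 0.00533) and those of Q133H 13801, 12894 and 11420 (-1.18 ± 0.22, adjusted p = 0.00342). All 4 transduced lines lay below the wildtype libraries at that time. EMD-/y had 21758, 22087 and 13552, a difference of -0.60 ± 0.27 that overlapped wildtype (adjusted p = 0.229). At 0 h EMD-/y had 12066, 12333 and 16648, all below the wildtype libraries at 23124, 23803 and 28265. Its difference of -0.88 ± 0.14 (adjusted p = 0.0108) was under the fold threshold and was called lower without EMD-/y library c (-1.03). At 48 h EMD-/y overlapped wildtype (-0.38 ± 0.26, adjusted p = 0.371). At 0 h +EMD was called lower (-1.42 ± 0.15, adjusted p = 3.81e-04). S54F was called lower at 0 h too (-1.12 ± 0.24, adjusted p = 0.0186), a call lost when wildtype or S54F library a or b was left out (-1.42 to -0.97) and with a and b averaged (adjusted p = 0.159). At 48 h the Q133H difference was 0.01 ± 0.17.

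Col5a3, the α3(V) chain (chromosome 9, bases 20770050 to 20815117, promoter shown above), had its largest changes in Q133H. Wildtype had 1551, 1495 and 1366 normalized counts at 0 h, 2026, 2434 and 1854 at 24 h, and 1203, 1245 and 1069 at 48 h. Q133H had 364, 350 and 488, then 125, 112 and 169, then 109, 108 and 274. The log2 difference was -1.88 ± 0.13 at 0 h (adjusted p = 1.73e-04), -3.98 ± 0.19 at 24 h (15.8-fold lower, adjusted p = 1.09e-05) and -3.03 ± 0.31 at 48 h (8.14-fold lower, adjusted p = 4.21e-04). Δ95–99 was lower at 24 h, with 812, 826 and 823 (-1.36 ± 0.10, adjusted p = 7.73e-05). EMD-/y and S54F had differences of 0.73 ± 0.07 and 0.85 ± 0.09 at 48 h, above wildtype in each library and under the fold threshold (adjusted p = 6.01e-04 and 2.86e-04). Per kb, Col5a3 was 0.0293 to 0.0991 of Col5a1 in Q133H libraries and 0.184 to 0.342 in wildtype.

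Col11a1, the α1(XI) chain (chromosome 3, bases 114030479 to 114220756, promoter shown above), moved in opposite directions in different lines. Wildtype libraries had 141, 130 and 165 normalized counts at 0 h. In +EMD it had 7.62, 4.91 and 9.13, a 19.2-fold lower level (-4.26 ± 0.32, adjusted p = 1.06e-04). In Δ95–99 it had 436, 455 and 884 (1.96 ± 0.34, adjusted p = 0.00607) and in Q133H 384, 312 and 491 (1.44 ± 0.21, adjusted p = 0.00337). At 48 h wildtype had 74.4, 78 and 60.6, Δ95–99 229, 292 and 474 (2.18 ± 0.37, adjusted p = 0.00166), Q133H 435, 466 and 285 (2.43 ± 0.30, adjusted p = 8.38e-04), and +EMD 78.6, 99 and 30.1, which overlapped wildtype (-0.19 ± 0.40, adjusted p = 0.711).

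At 24 h both Col11a1 calls depended on single libraries. Wildtype had 261, 236 and 78.6, and +EMD had 8.14, 11.9 and 42.2 (-3.36 ± 0.86, adjusted p = 0.0148). That call was lost without +EMD library a or b and with a and b averaged (adjusted p = 0.0793), and the difference without 1 library lay between -4.03 and -2.88. The Q133H difference of 1.20 ± 0.41 (adjusted p = 0.0439) was lost without wildtype b or c or Q133H a or b (0.63 to 1.52) and with a and b averaged (adjusted p = 0.0939).

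Col11a2, the α2(XI) chain (chromosome 17, bases 34038919 to 34066684), was called lower at 48 h in Δ95–99 and Q133H. Wildtype had 27.8, 18.6 and 25.6 normalized counts at that time, Δ95–99 5.79, 9.84 and 5.76 (-1.70 ± 0.36, adjusted p = 0.00476) and Q133H 9.38, 0.936 and 4.91 (-2.55 ± 0.65, adjusted p = 0.0143). In these 2 groups Col11a1 and Col11a2, which pair in type XI collagen, thus differed from wildtype in opposite directions.

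Col2a1, the chain of cartilage collagen (chromosome 15, bases 97975602 to 98004724), was called higher in 10 comparisons, each resting on few reads. Summed over 3 libraries, wildtype had 8 reads at 0 h, 24 at 24 h and 3 at 48 h. At 0 h +EMD had 60 reads, Q133H 47, Δ95–99 34 and EMD-/y 26. The ratio to wildtype, scaled for depth, was 7.54 in +EMD (95% exact interval 3.59 to 18.2, counting error only), 5.7 in Q133H (2.67 to 14), 4.07 in Δ95–99 (1.85 to 10.2) and 3.21 in EMD-/y (1.41 to 8.21). At 48 h it was 23 in Q133H (7.59 to 114), 10.2 in Δ95–99 (3.21 to 51.5) and 8.43 in +EMD (2.58 to 43.5). At 24 h +EMD had 46.2, 45.6 and 30 normalized counts against 6.12, 10.5 and 7.67 in wildtype (2.26 ± 0.35, adjusted p = 0.00144).

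Of these 10 Col2a1 calls, 4 were also made with a and b averaged, in +EMD at 0 and 24 h and in Δ95–99 and Q133H at 48 h. The EMD-/y call at 0 h had an adjusted p of 0.0499 and was lost whichever library was left out (log2 differences of 1.42 to 1.85). The +EMD call at 48 h was lost without wildtype b or c (2.45 to 3.90), and the Δ95–99 call at 0 h without wildtype a or c or Δ95–99 a (1.63 to 2.14). Without wildtype a, the calls of Δ95–99 at 24 h (1.25 to 1.60) and of Q133H at 0 h (2.06 to 2.59) and 24 h (1.22 to 1.59) were lost. Beside it, 10 cartilage markers summed to 488 to 614 normalized counts in wildtype libraries, 534 to 774 in EMD-/y, 843 to 1887 in +EMD, 667 to 993 in S54F, where Col2a1 was not called (log2 differences of 1.54, 0.30 and 0.12, with an unadjusted p under 0.05 in 1 of 3), 639 to 1224 in Δ95–99 and 704 to 986 in Q133H. Sox9 made up a median of 90.1% of that sum. The other 9 markers summed to 30.9 to 286 in wildtype, 79.1 to 790 in +EMD, 25.2 to 171 in Δ95–99 and 9.38 to 40.3 in Q133H, and the defining marker Acan had at most 1 read in any library. Their part in the Col2a1 result was not tested.

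Col27a1, a minor fibrillar chain (chromosome 4, bases 63214009 to 63334991), was higher at 48 h in Δ95–99 and Q133H. Wildtype had 16.7, 23.3 and 17.5 normalized counts, Δ95–99 47.3, 50.2 and 53.7 (1.40 ± 0.24, adjusted p = 0.00181) and Q133H 150, 126 and 51 (2.35 ± 0.58, adjusted p = 0.0127). The Q133H call was lost without wildtype a or c (2.07 to 2.80) and with a and b averaged (adjusted p = 0.0736). In +EMD it was lower at 0 h, with 18.1, 24.6 and 14.2 against 55.6, 46.4 and 33.3 (-1.23 ± 0.33, adjusted p = 0.0214). That call was lost without wildtype a or b or +EMD a or c (-1.43 to -1.04) and with a and b averaged (adjusted p = 0.107).

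**Figure D5:**
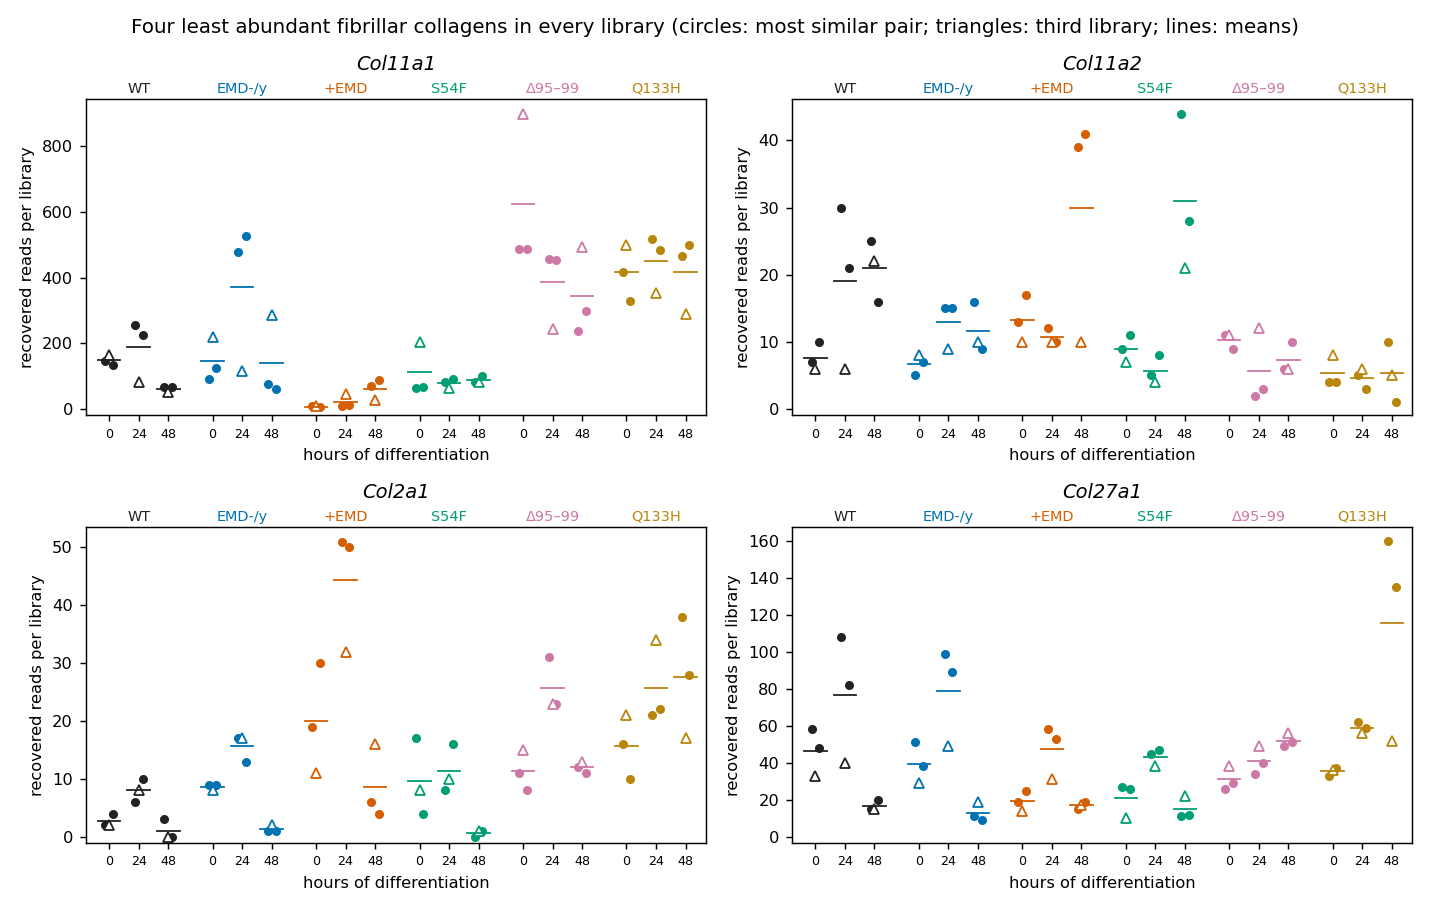
Recovered reads per library of the 4 least abundant fibrillar collagens, by line and hours of differentiation; circles are the most similar pair, triangles the third library and lines the means. Col11a1 lies lowest in +EMD at 0 h and high in Δ95–99 and Q133H, and Col2a1 and Col11a2 stay at or under 51 and 44 reads.

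Myogenic markers differed between the lines as well. Of 36 tests of the 12 myogenic genes, 2 were called higher and 23 lower in Q133H (median log2 difference -2.50), 7 and 20 in Δ95–99 (-1.28), 7 and 10 in +EMD (-0.41) and 6 and 1 in S54F (-0.02). In EMD-/y 4 were called higher, with a median of 0.24. The early factors Pax7 and Myf5 gave most of the higher calls, Pax7 being named after its values were seen. Pax7 was higher at all 3 times in EMD-/y, +EMD, S54F and Δ95–99 and lower at all 3 in Q133H. Myf5 was higher at 3 times in +EMD and Δ95–99, at 1 in S54F and at 2 in Q133H. At 24 h the 12 genes summed to 242620, 288357 and 210400 normalized counts in wildtype and to 22759, 21523 and 29347 in Q133H. The Q133H libraries disagreed at 48 h, with 63670 and 76910 in a and b and 280884 in c, against 788376, 818231 and 954335 in wildtype. Over all times the sum lay between 59405 and 954335 in wildtype, 71806 and 933009 in EMD-/y, 58136 and 581946 in +EMD, 62451 and 800962 in S54F, 39454 and 423531 in Δ95–99, and 21523 and 280884 in Q133H. The 12 fibroblast and fibro-adipogenic markers, of which 10 to 11 had more than 3 reads in some library of each line, summed to 24691 to 75764 normalized counts in wildtype and 36380 to 86208 in the other lines, but Vim alone, named here after its values were seen, made up a median of 91% of that sum. The other 11 summed to 4063 to 9212 in wildtype libraries, 4919 to 7742 in EMD-/y, 2827 to 6521 in +EMD, 4375 to 6652 in S54F, 2799 to 6082 in Δ95–99 and 2248 to 3856 in Q133H, so that all Q133H libraries lay below wildtype. By calls, +EMD had 3 higher and 10 lower of 35 tests (median log2 difference -0.33), S54F 2 and 6 of 34 (-0.23), Δ95–99 5 and 11 of 35 (-0.75) and Q133H 5 and 10 of 34 (-0.08), while EMD-/y had 3 higher of 36 (-0.06). In +EMD, Osr1 was lower at all 3 times, Pdgfrb and Pi16 at 2, and Pdgfra, Thy1 and Ly6a at 1. Cd34, Tcf7l2 and Dpep1 were higher at 1 time. Pi16 had at most 20 reads in a library. Of these genes, those other than Osr1 and Pi16 were named after their values were seen. The part of cell composition in the collagen differences was not tested.

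Between consecutive times, 9 of 120 member tests were called higher and 12 lower at the later time. From 0 to 24 h, 6 of 60 were higher and 1 lower, against 8.44% and 6.54% of all genes. From 24 to 48 h, 3 were higher and 11 lower, against 7.17% and 7.67%. Scaling by library totals gave 6 higher and 15 lower in all. With a and b averaged, 2 were higher and 7 lower, against 5.87% and 4.96% of all genes. From 0 to 24 h in that setting 0 were higher, where limma voom gave 6 with an unadjusted p under 0.05.

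In wildtype, Col1a2 fell from 24 to 48 h by 1.10 ± 0.12 on the log2 scale (adjusted p = 2.96e-04), although without wildtype library c at 48 h the difference was -0.99 and not called. Col5a2 fell by 1.16 ± 0.22 (adjusted p = 0.00343) in the same interval. Both calls held with a and b averaged. Col1a1 was called higher in wildtype from 0 to 24 h (1.06 ± 0.35, adjusted p = 0.0396) although its libraries overlapped, and that call was lost without library a or b at either time and with a and b averaged. In Q133H, Col5a3 fell from 0 to 24 h by 1.54 ± 0.21 (adjusted p = 0.00271), a comparison that crosses sets of libraries. Col1a1 rose in S54F from 24 to 48 h, from 4845, 4113 and 3156 to 6835, 9771 and 9059 (1.05 ± 0.17, adjusted p = 8.29e-04). That call was lost without library c at 24 h or library b at 48 h (0.89 at the smallest). Col11a2 rose in S54F in this interval from 4.49, 7.42 and 3.62 to 51.4, 32.9 and 24.1 (2.66 ± 0.44, adjusted p = 9.55e-04). The low members Col2a1 and Col27a1 gave 13 of the 21 calls, 5 higher and 8 lower. Col2a1 dropped from 24 to 48 h in wildtype from 24 to 3 reads in all (ratio 7.03, 95% exact interval 2.14 to 36.5, the call lost without library b or c at 48 h), in EMD-/y from 47 to 4 (9.78, 3.57 to 37.4) and in S54F from 34 to 2 (13.3, 3.41 to 114). Col3a1 and Col5a1 had 0 calls in 12 tests each by limma voom and by limma with a mean trend, with an unadjusted p under 0.05 in 5 and 3 of them. Of the 21 calls, 8 held whichever library was left out. The 8 comparisons inside 1 set of libraries held 5 of the higher and 11 of the lower calls.

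Whether a line's change over an interval differed from the wildtype change was tested on the difference of both. Of 100 tests, 10 were called higher and 1 lower, against 3.64% and 2.68% of all genes. With a and b averaged 0 were higher and 1 lower, against 0.953% and 0.728% of all genes, and in that setting 16 of the positive differences had an unadjusted p under 0.05 by limma voom. The lower one was Col5a3 in Q133H from 0 to 24 h, where the change was 2.10 ± 0.24 below that of wildtype on the log2 scale (-2.10, adjusted p = 1.63e-04). It held without each of the 12 libraries in turn (-2.27 to -1.95) and with a and b averaged (-2.06, adjusted p = 0.0173). The Q133H libraries at 0 h and at 24 h belong to different sets of libraries while the wildtype libraries stay in 1 set, so set and time cannot be told apart for this change. The 10 higher ones were all from 24 to 48 h, the interval in which wildtype Col1a2 and Col5a2 fell.

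The +EMD line was transduced like the mutant lines, but the study selected it at a lower puromycin dose and reported more emerin protein in Q133H. EMD-/y progenitors were neither transduced nor selected. The comparisons with +EMD at 24 and 48 h lie inside 1 set of libraries. Of 120 member tests of EMD-/y, S54F, Δ95–99 and Q133H against +EMD at the same time, 36 were called higher and 12 lower, against 6.4% and 5.27% of all genes. With a and b averaged, 24 were higher and 4 lower, against 3.5% and 3.25%. The 8 comparisons inside 1 set held 27 of the higher and 10 of the lower calls in 80 tests. Of these 48 calls, 32 held whichever library was left out. These comparisons share the +EMD libraries.

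Col1a2 was higher than in +EMD in 12 of 12 comparisons, also with a and b averaged. The log2 difference at 0 h was 5.92 ± 0.13 in EMD-/y (adjusted p = 2.10e-06), 5.14 ± 0.25 in S54F (adjusted p = 2.59e-04), 5.62 ± 0.22 in Δ95–99 (adjusted p = 2.50e-05) and 6.09 ± 0.15 in Q133H (adjusted p = 8.44e-06). At 48 h it was 3.995 ± 0.392, 3.21 ± 0.33, 2.87 ± 0.41 and 3.60 ± 0.41 in the same order. Among the 12 comparisons the smallest value with 1 library left out was 2.36, in Δ95–99 at 48 h. Col11a1 was higher in 10 of 12, of which 5 were called with a and b averaged, and at 0 h its difference was 6.24 ± 0.79 in Δ95–99 and 5.72 ± 0.49 in Q133H. The Col11a1 calls in EMD-/y at 24 h (4.24 ± 1.32) and S54F at 0 h (3.65 ± 0.81) were lost without any 1 of the +EMD libraries, the former also without EMD-/y a or b, and that in S54F at 24 h (2.12 ± 0.47) without +EMD b. Col1a1 was higher in 5 of 12. Those called also with a and b averaged were EMD-/y at 48 h (3.01 ± 0.46, adjusted p = 0.00173) and S54F at 48 h (2.67 ± 0.14, adjusted p = 1.88e-05). Col5a3 was lower in Q133H at each time (-1.33 ± 0.29, -3.75 ± 0.42 and -2.64 ± 0.30), where the 0 h call was lost without Q133H library a and with a and b averaged. Col3a1 was lower in Q133H at 24 h (-1.47 ± 0.20, adjusted p = 7.94e-04) and higher in S54F at 48 h (1.05 ± 0.06, adjusted p = 2.55e-05).

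Genes that process, bind, degrade, sense or regulate fibrillar collagens were then examined, each list by its calls over the 15 comparisons with wildtype, beside 6.83% higher and 7.06% lower over all genes. The members themselves had 11.3% higher and 22.7% lower. Procollagen hydroxylation, folding and export (prolyl and lysyl hydroxylases, Serpinh1 and others, 23 genes) gave 3 higher and 18 lower calls in 336 tests. These were 0.893% and 5.36%, both under the shares of all genes, with a median log2 difference of -0.15. P4ha3, a prolyl 4-hydroxylase subunit, was lower in 8 of 15. It was lower in 5 with a and b averaged. The gene had 48.9 to 387 normalized counts in wildtype libraries and 16.4 to 265 in the other lines, with the largest difference in Q133H at 24 h (-1.56 ± 0.23, adjusted p = 1.31e-03).

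Procollagen trimming and cross-linking (13 genes) gave 34 higher and 23 lower calls in 193 tests, 17.6% and 11.9%. Adamts2, the enzyme that removes the amino-terminal propeptide of procollagens I and III, was lower in 9 of 15, all 9 also with a and b averaged. It had 277 to 1062 normalized counts in wildtype libraries, and in +EMD at 0 h, where Col1a2 was lowest, its difference was -6.89 ± 0.43 (adjusted p = 5.09e-05). Tll1, a tolloid-like protease, was higher in 6 of 15 (4.31 ± 0.78 in Δ95–99 at 0 h, adjusted p = 7.32e-03). Its wildtype level was low, with 0.959 to 12.1 normalized counts against 0.912 to 161 elsewhere. Loxl4, a lysyl oxidase, was higher in 5 of 15 (2.66 ± 0.32 in Δ95–99 at 48 h, adjusted p = 2.80e-04).

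Fibril-binding proteoglycans and organisers (17 genes, 16 with tests) gave 19 higher and 52 lower calls in 234 tests, 8.12% and 22.2%, with a median of -0.26. With a and b averaged the counts were 11 and 35. Q133H alone gave 3 higher and 22 lower of 46. Thbs2, a matricellular protein that binds collagen fibers, was lower in 9 of 15, all 9 also with a and b averaged, and had 996 to 2233 normalized counts in wildtype and 62.5 to 1719 elsewhere. Fmod, the proteoglycan fibromodulin, was lower in 9 of 15 (18.6 to 152 in wildtype, 0 to 431 elsewhere), with 6 called with a and b averaged. Col14a1, a fibril-associated collagen, was higher in 9 of 15, from 0 to 4.19 normalized counts in wildtype to 0 to 91 elsewhere.

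Collagen degradation and uptake (12 genes) gave 23 higher and 7 lower calls in 175 tests (13.1% and 4%), 17 and 4 with a and b averaged. Mmp2, the gelatinase A that cuts unwound collagen, was higher in 8 of 15, with 1359 to 3343 normalized counts in wildtype and 1395 to 9114 elsewhere (1.81 ± 0.19 in Q133H at 0 h, adjusted p = 8.79e-04). Collagen receptors (9 genes, 8 with tests) gave 7 higher and 17 lower calls in 113 tests (6.19% and 15%), 4 and 10 with a and b averaged. Itga10, the α10 integrin, was lower in 7 of 15 (-3.10 ± 0.46 in +EMD at 0 h, adjusted p = 1.86e-03).

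Regulators of fibrillar collagen transcription (26 genes, among them TGF-β ligands, Smads and NF-Y subunits) gave 41 higher and 20 lower calls in 390 tests, 10.5% and 5.13%. The NF-Y subunits Nfya, Nfyb and Nfyc had 0 calls at these thresholds, as had Sp1, Tgfb1, Smad2, Smad3 and Smad4. Tgfb2 was higher in 1 comparison and lower in 3, Tgfb3 lower in 5 and Smad7 higher in 2. These genes were named after their values were seen. Twist2, a basic helix-loop-helix factor of mesenchyme, was higher in 8 of 15 (4.19 ± 0.63 in Q133H at 48 h, adjusted p = 1.70e-03). Sox5, a partner of Sox9 at the Col2a1 gene, was higher in 9 of 15, of which 4 were called with a and b averaged (2.96 ± 0.36 in +EMD at 0 h, adjusted p = 7.30e-04). Sox9, which drives Col2a1 and Col11a2 in cartilage and is also on the cartilage list, was higher in 5 of 15, with 277 to 506 normalized counts in wildtype and 419 to 1363 elsewhere (2.00 ± 0.12 in +EMD at 48 h, adjusted p = 1.14e-05).

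The marker lists gave 26 higher and 54 lower calls in 180 tests for myogenic cells, 18 and 37 in 174 for fibroblasts and fibro-adipogenic cells, 18 and 10 in 102 for cartilage cells, 2 and 4 in 61 for endothelial cells, and 1 and 7 in 76 for blood cells. With a and b averaged the fibroblast list gave 11 and 24, the cartilage list 10 and 5 and the endothelial list 1 and 3. Lum and Dpt stand on the fibroblast and the fibril-binding lists. Among myogenic genes Mef2c was lower in 8 of 15 (-5.51 ± 0.30 in Δ95–99 at 24 h), Ckm, muscle creatine kinase, lower in 7 (-7.08 ± 0.47 in Q133H at 24 h) and Myf5, an early myogenic factor, higher in 9 (2.94 ± 0.27 in Δ95–99 at 48 h). Among fibroblast genes Osr1 was lower in 9, Pi16 in 7 and Dpt in 5, the latter pair at no more than 24 normalized counts in any library and in 2 comparisons each with a and b averaged. Among cartilage genes Hapln1 was higher in 8, at no more than 49.1 normalized counts, and Comp lower in 6, which became 3 and 2 with a and b averaged. Itgam, a leukocyte integrin, was lower in 6 of 15, with 1.92 to 323 normalized counts in wildtype and 0 to 252 elsewhere.

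The genes whose levels ran most like those of 3 members were sought by Pearson's r of mean log2 levels over the 18 groups, among 11574 genes, as a description. The groups share lines and times and are not independent. Col3a1 ran with Col5a3 (r = 0.936), Col6a1, a chain of type VI collagen (0.906), and Cd248, a stromal surface protein (0.904). Col1a1 ran with Adgrg2 (0.896), Scn7a (0.891) and Man1c1 (0.89). Col5a1 ran with Eif3f (0.85), Tenm4 (0.819) and Col3a1 (0.812).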

How the data were processed

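Poly-A RNA of the 54 samples was sequenced as paired reads. According to the methods of the study, the authors filtered reads with SOAPnuke, aligned them to mm10 with HISAT2 and compared pairs of groups with DESeq2; versions and strand setting are not given in the sources used here. The deposited tables hold, for each gene and pair of groups, a signal that the authors made from read counts divided by size factors and averaged over libraries. Their 2 group values are set by a shrunken fold change, so only the mean over both groups of a pair is a plain mean. The deposited columns of fold changes, p-values and calls were not used, and 0 other columns of per-sample values were left unused.

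Counts of each library were recovered as the whole numbers that give these pair means in all tables, which the design had described as group means. This solved 19652 of 19653 genes, with a largest relative residual of 1.02e-14. Recovered libraries cannot be tied to the replicate numbers of the labels. Median-of-ratios size factors gave normalized counts, and levels per kb used the median of the deposited lengths. Tests used limma 3.58.1 (voom, with p-values adjusted by Benjamini-Hochberg across every gene tested in that comparison) in R 4.3.3 on the libraries of the groups compared, and were tested on simulated data. Figures were drawn with matplotlib 3.10.9, and the remaining steps ran in Python 3.11.15 (scipy 1.17.1, numpy 2.4.6; tables with pandas 2.3.3). Intervals cover counting error only. RefSeq symbols were matched for 17824 identifiers.

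The members, gene lists and tests were chosen with earlier results of these data known. All 10 members were named. From each other list, up to 3 genes were named, those with the largest median size of log2 difference over the 15 comparisons with wildtype among genes called in 1 direction in at least 5. The 3 genes most like Col1a1, Col3a1 and Col5a1 were sought where the mean reached 50 normalized counts, after adding 1 and taking log2. Alternatives were scaling by library totals, a mean of at least 10 normalized counts, 1 fit over all 18 groups, limma with a mean trend, other thresholds, leaving out each library, the authors' values alone, and the average of libraries a and b, which was chosen after seeing the data.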

Additional observations from a re-analysis of the deposited data

Results flagged for a closer look

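In 11 tests a line's change over an interval differed from the wildtype change, by limma voom on the difference itself, with the sizes given here on the log2 scale. From 24 to 48 h in +EMD, the change of Col1a2 was 2.33 ± 0.49 above that of wildtype (adjusted p = 0.00648), that of Col11a1 3.15 ± 1.03 above (adjusted p = 0.0482) and that of Col5a2 1.19 ± 0.35 above (adjusted p = 0.0316). The Col11a1 call was lost when any of the 12 libraries but +EMD c at 48 h or wildtype c at 24 h was left out (2.68 to 3.83). The Col5a2 call was lost without wildtype a or b at 24 h, wildtype c at 48 h or +EMD c at either time (0.93 to 1.46).

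In S54F over the same interval, the change of Col1a2 was 1.12 ± 0.15 above that of wildtype (adjusted p = 0.00201) and that of Col1a1 1.81 ± 0.43 above (adjusted p = 0.0276). The Col1a1 call was lost without wildtype a or b at 24 h, wildtype c at 48 h, or S54F b or c at either time (1.55 to 2.18). In Δ95–99 the change of Col27a1 was 2.37 ± 0.56 above that of wildtype (adjusted p = 0.01).

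In Q133H from 24 to 48 h, the change of Col1a2 was 1.06 ± 0.17 above that of wildtype (adjusted p = 0.00176), that of Col5a2 1.16 ± 0.30 (adjusted p = 0.0167), that of Col2a1 3.09 ± 0.81 (adjusted p = 0.0174) and that of Col27a1 2.79 ± 0.75 (adjusted p = 0.0193). The Col1a2 call was lost without wildtype b at 24 h, wildtype c at 48 h or Q133H b at 48 h (0.95 to 1.17), the Col2a1 call without wildtype b or c at 48 h (2.63 to 4.01), and the Col27a1 call without wildtype a or c at 48 h (2.47 to 3.24). From 0 to 24 h in Q133H, the change of Col5a3 was lower than that of wildtype (-2.1 on the log2 scale, adjusted p = 1.63e-04), in an interval over which the Q133H libraries change set. Of these 11 calls, this last was also made with libraries a and b averaged. These tests share the wildtype libraries.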

How the results depend on the processing

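No direction of a member call was reversed under any alternative run. Against wildtype, 17 higher and 34 lower calls became 9 higher at an adjusted p under 0.01, 9 higher with libraries a and b averaged, and 56 lower without the fold threshold, and leaving out 1 library gave 14 to 18 higher and 32 to 42 lower. Between times, 9 higher and 12 lower became 20 and 19 without the fold threshold, 2 higher at an adjusted p under 0.01, 2 and 7 with a and b averaged, and 14 higher by a ratio of at least 2 in the authors' values, with 7 to 14 and 9 to 15 when 1 library was left out (14 higher without EMD-/y c at 24 h). Against +EMD, 12 lower became 4 at an adjusted p under 0.01 and 4 with a and b averaged, and leaving out 1 library gave 34 to 38 higher and 9 to 14 lower. For transitions, 10 higher became 3 at an adjusted p under 0.01 and 0 with a and b averaged, and 1 lower became 2 in 1 fit over all 18 groups and 4 without the fold threshold. Leaving out 1 library gave 5 to 17 higher and 1 to 8 lower transitions: wildtype b at 24 h left 6 higher, wildtype c at 24 h 17 higher and 8 lower, wildtype c at 48 h 5 higher, and Δ95–99 c at 0 or 24 h 2 lower. The causes were not tested. Library totals shifted the median difference of all genes by -0.27 to 0.294. No paired analysis was possible because the recovered libraries carry no replicate number. Depth limits Col2a1 and Col11a2, with at most 51 and 44 reads in a library.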
